A study of Homo sapiens with 2 samples.

Results

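PRDM1 binding over PAX5 and the stretch upstream of it was read from a chromatin immunoprecipitation sequencing (ChIP-seq) peak list of U266, an established human multiple myeloma line. Members were all peaks of the complete list on chromosome 9 whose summit, the point of highest tag pileup, lay from 36750000 to 37470000 (GRCh37). The members were thus selected on called PRDM1 peaks and their summit positions, and their tags, folds and FDR come from the same comparison and are given as a description. The rule took in 9 of the 9669 peaks of the list, and 461 peaks lay on chromosome 9. The region is 720 kb long. The PAX5 gene body runs from 36833 to 37034 kb on the minus strand, so the gene starts at its high coordinate and upstream sequence lies at higher coordinates. The rest of the region passes through ZCCHC7 to GRHPR. Of the 9 peaks, 2 lay inside PAX5, so most of the members were peaks of the flanks and not of the gene.

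The study had 2 libraries, both labelled U266, a line grown without any stated treatment. The design text speaks of 2 myeloma lines and the growth protocol also names NCI-H929, and the peaks were called on merged alignments. That the list stands for U266 alone rests on the labels. The first library came from immunoprecipitation with a rabbit monoclonal antibody against PRDM1, clone C14A4. The second was input DNA made with no antibody. The labels give the cell type as plasma cell lymphoma and the source as a multiple myeloma line, and peak lists hold no marker expression against which to check this. After removal of duplicates the PRDM1 library kept 7854466 tags and the input 8556458. Neither library was replicated. Intervals below therefore cover counting error of the PRDM1 tags only, and no difference between conditions was tested. The series sets out to map PRDM1 sites in myeloma cells, and the question here is where such sites lie around PAX5.

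PAX5 encodes a paired-box transcription factor that commits cells to the B lineage and keeps them there, in part by activating genes of the B-cell receptor. PRDM1 (BLIMP-1) represses transcription through its zinc fingers as B cells turn into antibody-secreting plasma cells, and PAX5 is one of the genes it is known to shut off. Enhancers that act on PAX5 in B cells are known from the stretch between PAX5 and GRHPR. Whether any peak here overlaps one of them was not tested.

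The start of PAX5 carried no peak of the complete list. The nearest summit inside the gene lay 96 kb from the start and the nearest upstream summit 121 kb from it. The interval between those summits was 217 kb, and 37.1% of the 9645 intervals between neighbouring summits in the genome were longer. The median interval was 140 kb. A peak-free stretch of this length was therefore common in the list. No listed peak held fewer than 9 tags, and the genome mean was 2.91 PRDM1 tags per 1 kb, so a weaker site at the PAX5 start was not detectable at this depth.

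The promoter sequence shows what lies at that unmarked start. RefSeq sequences, from 250 bases before to 50 bases after a gene start, were searched on both strands for GAAAG, the core of the string PRDM1 is known to bind, and for the longer GTGAAAG that contains it. The sequences are in GRCh38.p14, another build than that of the peaks, and each is written 5′ to 3′ on the strand of its gene, with GAAAG or its reverse complement CTTTC in capitals. The PAX5 promoter, chr9:37034219-37034518 on the minus strand, and the first of 2 listed ZCCHC7 promoters, chr9:37120222-37120521 on the plus strand, are shown because these genes share the region.
PAX5: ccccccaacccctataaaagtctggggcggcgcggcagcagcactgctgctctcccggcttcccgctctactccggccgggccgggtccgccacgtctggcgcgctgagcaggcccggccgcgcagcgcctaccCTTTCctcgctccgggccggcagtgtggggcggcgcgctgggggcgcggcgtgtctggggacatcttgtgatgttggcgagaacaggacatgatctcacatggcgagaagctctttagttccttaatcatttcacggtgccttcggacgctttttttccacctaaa
ZCCHC7: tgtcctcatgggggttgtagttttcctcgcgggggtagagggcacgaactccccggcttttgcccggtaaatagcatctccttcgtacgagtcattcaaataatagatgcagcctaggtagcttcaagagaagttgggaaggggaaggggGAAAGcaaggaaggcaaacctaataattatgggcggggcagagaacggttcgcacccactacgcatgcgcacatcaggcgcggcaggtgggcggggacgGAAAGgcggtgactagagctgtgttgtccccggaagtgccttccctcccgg

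The PAX5 promoter held GAAAG once, on the reverse strand, beginning 116 bases before the start. The ZCCHC7 promoter held it at 2 places, both on the forward strand, beginning 100 bases and 1 base before the start. The GRHPR promoter held none. GAAAG was present in 54.7% of the 35116 RefSeq promoters, so its presence at PAX5 and ZCCHC7 sets neither apart. GTGAAAG was in none of these 3 genes' promoters and in 3.95% of all promoters. Of the 7 genes named along the region, MELK, PAX5, EBLN3P, ZCCHC7, GRHPR, ZBTB5 and POLR1E, 5 had an entry, all but EBLN3P and POLR1E. Among the 5, GAAAG occurred in MELK, PAX5 and ZCCHC7 and GTGAAAG in MELK, a kinase gene beyond the 3′ end of PAX5. Another list held PAX2 and PAX8, the closest relatives of PAX5, and 7 genes of the B-cell programme on which PRDM1 is known to act: CIITA, MYC, BCL6, SPIB, ID3, BACH2 and EBF1. Of these 9 genes 7 had an entry, all but CIITA and MYC, which were not searched. GAAAG occurred in 4 of the 7, PAX2, BCL6, ID3 and EBF1, and GTGAAAG in EBF1, an early B-lineage factor. PAX2 and BCL6 each had 2 listed promoters, with GAAAG in only 1 of them. A match is a description of the letters and not a binding site.

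The 9 peaks are numbered 1 to 9 along the chromosome, from the 3′ side of PAX5 to GRHPR. At a false discovery rate (FDR) of at most 5%, 4 of the 9 passed, against 43.5% of all peaks. With the authors' further limit of at least 50 tags 2 of the 9 passed, against 9.17% of all peaks. The first share is near that of the list. The region was chosen with these peaks known, so nothing is read from the second. All 4 peaks that passed the FDR limit lay upstream of PAX5, where there were 6 peaks. Neither the 2 peaks in the gene body nor the 1 peak beyond its 3′ end passed.

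**Figure D1:**
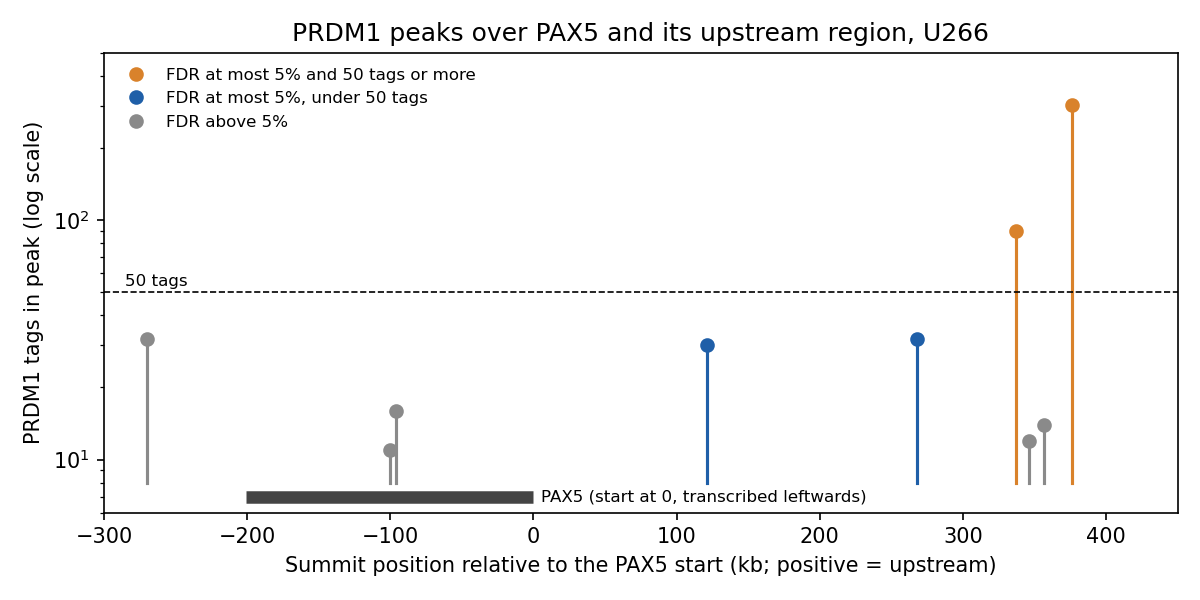
PRDM1 tags in each of the 9 peaks (vertical, log scale) against the distance of the summit from the PAX5 start (horizontal, kb), with the gene drawn as a bar. The peaks with 90 and 302 tags stand 337 and 376 kb upstream, above the line at 50 tags, and the 2 peaks inside the gene hold 11 and 16 tags.

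Inside PAX5 both peaks were weak. Peak 2, from 36933435 to 36934079, held 11 tags with a deposited fold of 12.5 at its summit, 100 kb into the gene, and an FDR of 30.81%. The deposited fold is the authors' ratio of summit height to local background. Peak 3, from 36937375 to 36938171, held 16 tags with a fold of 11.11 and an FDR of 8.45%. The summits were 4 kb apart, and 4.7% of the intervals between neighbouring summits in the genome were shorter. Whether these peaks lie in exons or introns was not determined, because a gene annotation on the coordinates of the peaks was not used.

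Tags were also set against the number expected from the input, which was worked back from each deposited score. The PRDM1 tags were first scaled by 1.09 to the depth of the input. Peak 2 held 5.81 times the expected tags (95% Poisson interval 2.9 to 10.4) and peak 3 held 4.86 times (2.78 to 7.89). For the 5503 listed peaks of 9 to 16 tags the median ratio was 5.71, with an interquartile range of 5.08 to 6.32. Of those peaks 12.7% passed an FDR of 5%. The counting intervals of both peaks in PAX5 held that median. A peak enters the list only by exceeding its background, so a ratio above 1 is no evidence by itself.

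Beyond the 3′ end of PAX5, peak 1 lay from 36763632 to 36764962. It held 32 tags but the lowest fold of the 9, 5.32, and an FDR of 47.21%. The recovered background corresponds to 15 input tags in the peak itself, or 3.56 times the genome mean. Its ratio to the expected tags was 2.32 (1.59 to 3.28). Peak 5, upstream, also held 32 tags, with 11.3 times the expected number (7.7 to 15.9), a fold of 27.14 and an FDR of 0.08%. Its background was 1.1 times the genome mean. These peaks thus had the same PRDM1 tags, and their ratios differed through the expected tags, 15 for peak 1 and 3.1 for peak 5. Expected tags depend on the input background and on the peak width, which was 1331 bp for peak 1 and 885 bp for peak 5. The intervals hold that background fixed, so whether the ratios differ beyond the counting error of the input was not tested. Of the 91 peaks in the list with 32 tags, 81 passed an FDR of 5%.

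The upstream flank began with peak 4, from 37154048 to 37155373, whose summit was 121 kb from the PAX5 start. It held 30 tags, a fold of 10.98 and an FDR of 0.15%, and its ratio was 6.01 (4.06 to 8.58). Peak 5, from 37301889 to 37302773, followed at 268 kb. The 1650 listed peaks of 25 to 49 tags had a median ratio of 6.76, with an interquartile range of 4.88 to 9.16, and 93.1% passed an FDR of 5%. The interval of peak 4 held that median and that of peak 5 lay above it. Both passed the FDR limit and missed the minimum of 50 tags.

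Peaks 6 to 9 lay within 42.6 kb at the far upstream end. Their summits were 337, 346, 357 and 376 kb from the PAX5 start, with intervals of 8.63, 11.1 and 18.6 kb between neighbours. The summit of peak 9 lay at 37409573 in GRCh37. In GRCh38.p14, another build, the GRHPR promoter lies at chr9:37422446-37422745 and the PAX5 promoter at chr9:37034219-37034518. On these coordinates peak 9 lay closer to the GRHPR start than to the PAX5 start. Exact distances to GRHPR were not computed across builds. Within 50 kb of the summit of peak 9 there were 3 other summits. As many or more neighbours were found at 75 of the 887 filtered peaks (8.46%) and at 4.77% of all peaks. Another filtered peak lay within 50 kb of 106 filtered peaks (12%), peaks 6 and 9 among them.

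Peak 6, from 37369671 to 37371845, held 90 tags (72.4 to 111) over 2175 bp. Its fold was 36.58 and its FDR 0. The recovered background corresponds to 11 input tags in the peak, and the ratio was 8.91 (7.17 to 11). The median of the 667 listed peaks of 50 to 99 tags was 9.65, with an interquartile range of 6.54 to 13.3, and peak 6 lay within that range. It was wider than most of them, whose median width was 1430 bp. It ranked 273 of 9669 by tags and 395 by fold.

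Between the strong peaks lay the weak peaks 7 and 8. Peak 7, from 37379733 to 37380261, held 12 tags with a fold of 12.5 and an FDR of 8.71%. Peak 8, from 37390626 to 37391427, held 14 tags with a fold of 10.98 and an FDR of 17.49%. Their ratios were 6.18 (3.19 to 10.8) and 4.64 (2.54 to 7.78). Neither passed the FDR limit, and their counting intervals overlapped those of the peaks inside PAX5.

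Peak 9, from 37408813 to 37412234, was the strongest of the region. It held 302 tags (269 to 338) over 3422 bp, 3.36 times the tags of peak 6, and the counting intervals of their tags did not overlap. Its fold of 196.88 was the highest of all 9669 peaks. The next folds in the list were 170.4 on chromosome 10 from 126752964, 168.18 on chromosome 1 from 111746131 and 160 on chromosome 22 from 42475426. On chromosome 9 the next was 112.22. Peak 9 ranked 7 by tags and 15 by width in the whole list, and 1 by tags on chromosome 9, where 14 peaks held at least 100 tags.

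**Figure D2:**
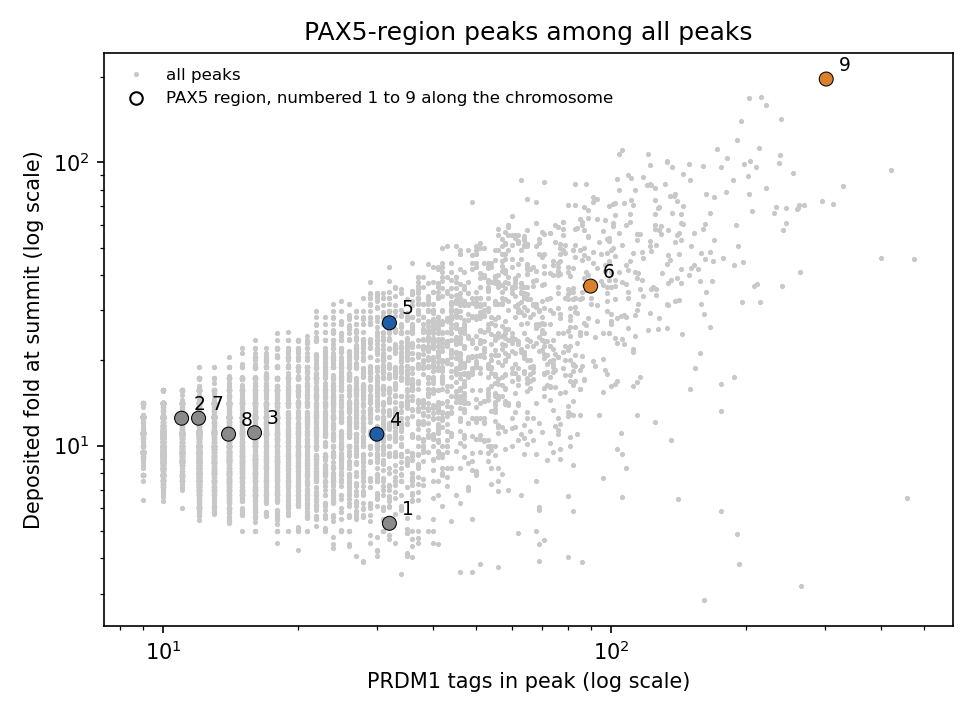
Deposited fold at the summit against PRDM1 tags, both on log scales, for all peaks (small points) and for the 9 peaks of the region (numbered points, orange for FDR at most 5% with at least 50 tags, blue for FDR at most 5% with fewer tags, grey for the rest). Peak 9 lies above every other peak in fold at 196.88, and peaks 1 and 5 have 32 tags each but folds of 5.32 and 27.14.

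The expected tags of peak 9 could not be read from its score, which the caller set to exactly 3100. The fold left 3 possible backgrounds at which the summit height was a whole number of tags, all as input tags in 10000 bp around the peak. With 32 input tags the summit height was 126 tags, or 41.7% of the tags of the peak. With 48 it was 189 tags (62.6%), and with 64 it was 252 tags (83.4%). The highest such share among the 222 peaks of at least 100 tags with a whole height was 73.9% and the median was 42.4%. The first 2 backgrounds gave ratios of 30 (26.8 to 33.6) and 20 (17.8 to 22.4) to the expected tags, and the last 15 (13.4 to 16.8). Which of them held was not settled. Peak 9 is 1 of the 230 listed peaks of at least 100 tags. Among those of them with a recovered background, which leaves out peak 9, the median ratio was 13.6, with an interquartile range of 9.25 to 18.3.

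**Figure D3:**
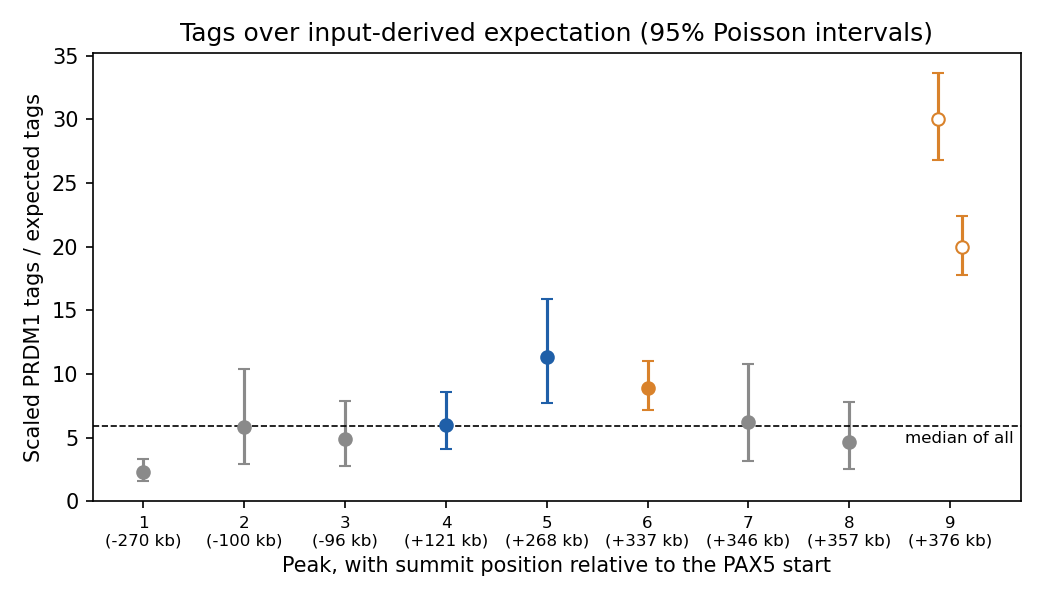
Scaled PRDM1 tags divided by the tags expected from the input (vertical) for each peak, labelled below with the summit position relative to the PAX5 start, with 95% Poisson intervals. Open circles give peak 9 at ratios of 30 and 20 under 2 possible backgrounds. A further possible background, with a ratio of 15, is not drawn. The dashed line is the median of all peaks with a recovered background, 5.88, which lies inside the intervals of peaks 2, 3, 4, 7 and 8.

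The summit of peak 9 was off centre, at 22.2% of the width from its low-coordinate end. Of the 887 filtered peaks 46 (5.19%) had a summit outside the central 50%. The summit of peak 6 lay at 74.1% of its width. Whether either peak holds more than 1 binding site cannot be read from a single summit.

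Over the 8 peaks with a recovered background the median ratio was 5.91, from 2.32 to 11.3, and the median of all 9667 such peaks was 5.88. The input background of these 8 lay between 1.01 and 3.56 times the genome mean. That of the 7 other than peak 1 lay between 1.01 and 1.6 times. Peak 6 lay at 1.6 times, and the median of the listed peaks of 50 to 99 tags was 1.58. Peak 1 had the highest background of the 8, and the median of the listed peaks of 25 to 49 tags was also 1.58.

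The peaks of the region held 539 tags together, 0.00686% of the PRDM1 library, over 1.65% of its length. Peak 9 held 56% of those tags (exact 95% binomial interval 51.7 to 60.3), and peaks 6 and 9 together 72.7% (68.8 to 76.4). The 6 upstream peaks held 480 tags, the 2 in the gene body 27 and the 1 beyond the 3′ end 32.

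Against the rest of the genome, the region was ranked among 4232 windows of 720 kb laid from the start of each chromosome to its last peak, leaving out those that touch the region. By tags in peaks it would rank 12, with 0.26% of windows higher. The median window held 25 tags. By number of peaks it would rank 41, with 40 further windows also at 9 peaks and a median of 2. Windows with no peak were counted, and stretches to which no tags can be aligned were not left out. This can lower the medians and the percent of windows higher. The region was placed around known peaks and the windows were not, which favours its rank. Without peak 9 the region held 237 tags and would rank 160, with 3.76% of windows higher. The windows kept their own strongest peaks, which lowers the region's rank in this comparison.

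**Figure D4:**
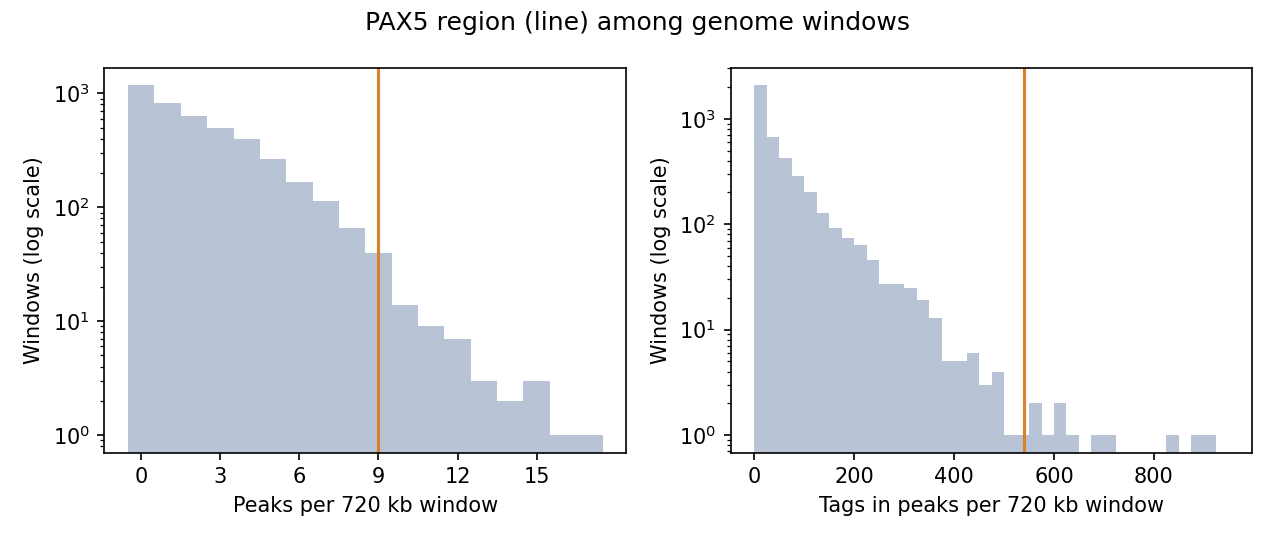
Number of genome windows of 720 kb (vertical, log scale) by peaks per window (left) and by tags in peaks per window (right), with the PAX5 region as a vertical line. The line stands at 9 peaks and 539 tags, where the median windows hold 2 peaks and 25 tags.

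At the low limit, the peak closest on the inner side was peak 1, 13.8 kb from the limit, with 32 tags and a fold of 5.32. Just outside were peaks of 16 and 14 tags, 18.3 and 18.8 kb away, with folds of 15.71 and 10. Their FDR was 1.62% and 5.32%, so the peak of 16 tags passed the limit of 5% and the other did not. At the high limit the last member was peak 9, 60.4 kb inside. The next peak lay 2.22 kb outside, with 12 tags, a fold of 13.75 and an FDR of 6.4%, and the one after it 237 kb away.

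In the RefSeq gene table of GRCh38, used for gene order only, PAX5 is followed upstream by EBLN3P, a transcribed pseudogene, then ZCCHC7, GRHPR and ZBTB5. ZCCHC7 encodes a zinc knuckle protein of nuclear RNA surveillance, and is the 1 protein-coding gene between PAX5 and GRHPR. GRHPR encodes glyoxylate and hydroxypyruvate reductase, a metabolic enzyme. The same stretch holds 6 long non-coding RNA genes in that table, LINC01627 among them. The peaks upstream of PAX5 were not assigned to any of these genes, and a peak list does not show which gene a bound site acts on.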

How the data were processed

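For the PRDM1 and input libraries of U266, the submitters' processing notes name Bowtie 0.12.7, CASAVA 1.8.2 and MACS 1.4. Peaks were called with MACS 1.4.1 on merged alignments, per the file headers, with a p cutoff of 1e-05 and a fragment of 200 bp. The deposited values per peak are the tag count (raw, after duplicate removal), the score (10 times −log10 of a Poisson p), the fold (a ratio of summit height to local background) and the FDR in percent, all the authors' own, per the file headers. The filtered list holds 887 peaks of at least 50 tags whose FDR is 5% or lower, and was recomputed exactly from the complete list.

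No genome build is named in the labels or headers used here. No peak end passed a chromosome end of GRCh37, 53 passed one of GRCh38 and 88 one of NCBI36, with lengths typed from general knowledge. Coordinates are GRCh37, 1-based.

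Expected tags were solved (Python 3.11.15, scipy 1.17.1) so that the Poisson chance of more than the scaled tags, rounded down, gave the deposited score. Expressed per 200 bp of peak width and multiplied by the fold, the expected tags gave whole summit heights within 0.06 tags for 98.7% of 9667 peaks. On simulated data, the background of 100% of 452 peaks was recovered within 1%; the scores were made with the same formula, so this checks the solving only. Every member is named, by the rule set for named features. The members and lists were chosen with earlier results of these data known. The promoter search, peak 9's backgrounds, neighbours and tag classes were chosen after seeing the data. Peak counts near other genes and searches of peak sequence were not run, since no genome of this build was used here.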

Additional observations from a re-analysis of the deposited data

How the results depend on the processing

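Ratios and shares were judged against their counting intervals, and counts and ranks by a factor of 1.5. By these measures 24 of 30 alternatives left the value in place. Counts, ranks and shares have no direction that could reverse. The number of peaks in the region, 9, became 4 at an FDR of at most 5%, which removes weak peaks by construction. The 2 filtered peaks became 1 at 100 tags or more and 4 at 25 tags or more. The share of the region's tags in peak 9, 56%, became 77% over the filtered peaks alone, which have fewer tags in all. The region's rank by tags was 12, and 160 without peak 9, and by number of peaks 41, and 81 without it. This alternative was added after seeing the data. The tags over expected of peaks 1 to 8 stayed within their intervals under all 16 alternatives of rounding and scaling. For peaks 3, 6, 7 and 8 rounding to the nearest gave the same number as rounding down, so that alternative could not move them. No paired analysis was possible because neither library has a replicate. Depth limits the precision of the ratios, whose interval ran from 2.9 to 10.4 at the 11 tags of peak 2 and from 7.17 to 11 at the 90 tags of peak 6.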
